A study of Mus musculus with 24 samples.

Results

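The zymosan response of bone marrow-derived dendritic cells (DCs) was compared between IRE1α genotypes, gene by gene, to ask whether the response itself depends on the genotype. The measure is an interaction on the log2 scale, the response of knockout (KO) cells (zymosan over untreated) minus the response of wild type (WT) cells. It uses 16 of the 24 RNA-seq samples: IRE1α KO with zymosan, IRE1α KO untreated, IRE1α WT with zymosan and IRE1α WT untreated, with 4 samples each. The other 8 samples, IRE1α KO and WT with lipopolysaccharide (LPS), serve for the shared estimate of spread and for 1 comparison at the end. All 38887 genes of the count table belong to the comparison, and the 14188 that passed a filter on low counts were tested. The allele, the way IRE1α was removed, the age of the mice, the zymosan dose and its duration are not given in the sources used here. Titles speak of treated mice and the extraction protocol of stimulated cultured cells. Replicates carry the numbers 1 to 4 with no word on separate mice or cultures, so p-values measure only how these samples vary, which may be technical.

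IRE1α, the product of Ern1, is a sensor in the endoplasmic reticulum (ER) membrane whose RNase removes a short intron from Xbp1 mRNA, and the spliced form encodes XBP1s, a transcription factor for ER chaperones, translocation and degradation genes. Zymosan is a yeast cell wall preparation that myeloid cells sense through dectin-1 and Toll-like receptor 2. Signals from both receptors reach NF-κB and induce cytokines, prostaglandin enzymes and feedback inhibitors.

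Ern1 (ENSMUSG00000020715, chromosome 11, 106394650 to 106487852, minus strand, GRCm38) was read first because the genotype label names it. Its level was 39.2, 38.6, 36.2 and 35.6 CPM with zymosan and 53.3, 54.6, 48.2 and 49.6 CPM untreated in KO cells. In WT cells Ern1 had 30.7, 30.3, 30.3 and 29.5 CPM with zymosan and 42.3, 43.3, 40.5 and 40.2 CPM untreated. In both conditions every library labelled KO was above every WT library. Reads of the whole gene are counted, exons outside any deleted stretch included, so this level is no check of the deletion. KO below means libraries labelled KO. Ern1 fell with zymosan by the same amount in both genotypes, with log2 responses of -0.46 ± 0.05 in KO cells and -0.46 ± 0.05 in WT cells. Xbp1 (ENSMUSG00000020484, chromosome 11, 5520659 to 5525893, plus strand) had 209, 211, 202 and 194 CPM with zymosan and 268, 266, 252 and 242 CPM untreated in KO cells. In WT cells Xbp1 had 229.99, 228, 203 and 209 CPM with zymosan and 247, 262, 236 and 228 CPM untreated. Both splice forms are held in these totals. Its responses were -0.33 ± 0.05 in KO cells and -0.16 ± 0.05 in WT cells, and the difference did not pass (interaction -0.17 ± 0.07, adjusted p = 0.228).

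Library totals were 32223256 to 46927434 counts, and levels are CPM, counts scaled to the TMM-corrected library total. Replicates 1 and 2 of a group lay close together, as did replicates 3 and 4. The chi-square per gene between 2 libraries was at most 6.29 inside these pairs and up to 23.7 between them. Whether the 4 libraries of a group are independent is not given in the sources used here, which bears on every call below. Of the DC markers, the summed level of 12 conventional DC genes was 2422 to 2726 CPM in KO with zymosan, 2243 to 2520 CPM in KO untreated, 2506 to 2695 CPM in WT with zymosan and 2285 to 2414 CPM in WT untreated. Itgax, the integrin CD11c, was high in all 4 groups (means of 1309, 1257, 1200 and 1185 CPM in the same order), while Flt3, a receptor of DC precursors, had means of at most 2.34 CPM. Macrophage genes summed to 16642 to 21241 CPM over all 16 libraries, most of it Lyz2.

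Zymosan changed most tested genes in each genotype. In KO cells 4487 genes rose (31.6% of those tested) and 4990 fell (35.2%), and in WT cells 4867 rose (34.3%) and 5091 fell (35.9%), at an adjusted p under 0.05 by edgeR's quasi-likelihood test with Benjamini-Hochberg adjustment over all genes, the rule used throughout. By more than 2-fold, 1210 genes rose and 852 fell in KO cells, and 1384 rose and 1243 fell in WT cells. Across the 14188 genes the responses, which share no library, had a Pearson r of 0.934, and their standard deviations were 0.910 in KO cells and 1.01 in WT cells on the log2 scale. The ratio of these was 0.902, and it was 0.891 in replicates 1 and 2 and 0.913 in replicates 3 and 4. Leaving out 1 library at a time gave 0.881 to 0.926. Genes are not independent replicates, so r and the ratio describe these libraries and carry no p.

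The interaction was called for 258 genes (1.82% of those tested), of which 138 were higher in KO (0.973%) and 120 lower (0.846%). Most calls were small: the median size was 0.41 on the log2 scale, 45 genes passed 1.5-fold and 5 passed 2-fold. The 138 genes called higher had median responses of -0.89 in KO cells and -1.32 in WT cells, and by these medians they fell less in KO. The 120 called lower had medians of 0.93 in KO cells and 1.29 in WT cells, and by these medians they rose less in KO. The plot of both responses shows the called genes beside the line of equal responses.

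**Figure D1:**
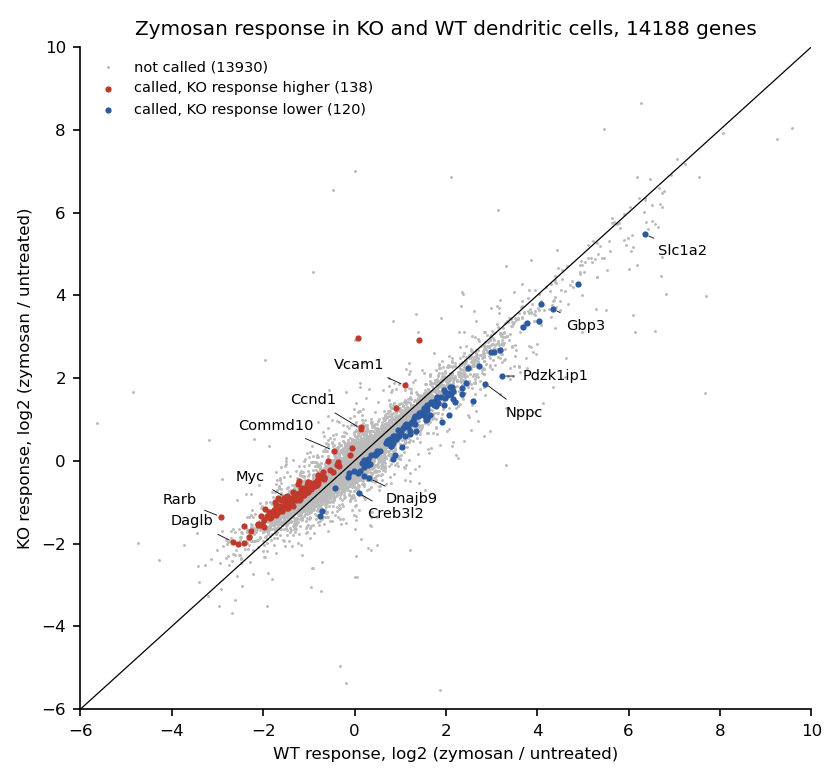
Log2 zymosan response (zymosan over untreated) in KO cells on the vertical axis against WT cells on the horizontal axis, for 14188 genes. Points are genes, red where the interaction was called higher (138), blue where it was called lower (120) and grey otherwise, and the line marks equal responses. The medians of the red genes are -0.89 in KO cells and -1.32 in WT cells, and those of the blue genes are 0.93 in KO cells and 1.29 in WT cells.

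These calls depend on treating the 4 replicates as independent. When each pair (1 with 2, 3 with 4) was added up to 1 sample, no gene was called. The smallest adjusted p by edgeR was then 0.159, and 823 of 15378 genes (5.35%) had an unadjusted p under 0.05. With the pair as a term within genotype there were again 0 calls by edgeR (smallest adjusted p 0.101) and 1301 genes (8.46%) at an unadjusted p under 0.05. With all 4 replicates 1855 genes (13.1%) had an unadjusted p under 0.05. No call named below holds with summed pairs. All 258 kept their sign there, which adds no support, since the same counts enter both fits. Replicate number as a block within genotype raised the calls to 292 higher and 298 lower, and DESeq2 gave 226 and 197. Fitting the 16 samples alone gave 107 higher and 47 lower, a larger share of higher calls. Without KO zymosan replicate 1 there were 91 higher and 63 lower calls, without KO zymosan replicate 2 there were 69 and 56, and without WT zymosan replicate 2 there were 102 and 78.

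The replicate pairs were also fitted apart, since they share no library. Replicates 1 and 2 alone gave 558 higher and 648 lower calls, and replicates 3 and 4 alone gave 74 and 118. Each of these fits takes its spread from inside 1 close pair per group. Its p-values measure only that spread, which may be technical, and this holds for the list counts of single pairs below. Among the 14065 genes tested in both, 107 were called in both pairs, 8.89% of the 1203 called in replicates 1 and 2 and 56.0% of the 191 called in replicates 3 and 4, and 105 of these had the same sign. Of the genes called in replicates 1 and 2, 84.1% had the same sign in replicates 3 and 4, where 58.1% of all genes did.

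**Figure D2:**
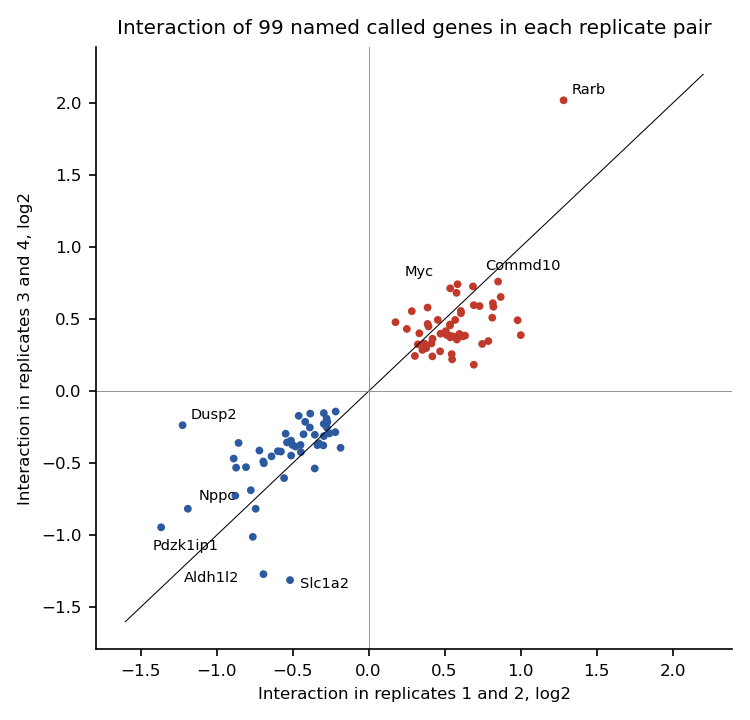
Interaction (log2) in replicates 3 and 4 alone on the vertical axis against replicates 1 and 2 alone on the horizontal axis, for the 99 called genes that follow the naming rule or were added to it. Red genes were called higher and blue genes lower with all 4 replicates, a choice that favours equal signs in both pairs; values run from -1.36 to 1.28 in replicates 1 and 2 and from -1.31 to 2.02 in replicates 3 and 4.

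Among growth genes, Myc fell less in KO cells and Ccnd1 rose more. Myc, the transcription factor that drives ribosome production and nucleotide synthesis (ENSMUSG00000022346, chromosome 15, 61985391 to 61990374, plus strand), had 20.2, 20.3, 19.9 and 20.9 CPM with zymosan and 38.2, 36.1, 37.2 and 38.3 CPM untreated in KO cells. In WT cells Myc had 15.1, 13.3, 13.03 and 13.1 CPM with zymosan and 38.0, 37.5, 38.9 and 40.5 CPM untreated. The untreated groups overlapped, and with zymosan every KO library was above every WT library. Its log2 responses were -0.88 ± 0.04 in KO cells and -1.51 ± 0.04 in WT cells, an interaction of 0.62 ± 0.06, adjusted p = 3.2e-06, with 0.54 in replicates 1 and 2 and 0.71 in replicates 3 and 4. Ccnd1, cyclin D1 of the G1 phase (ENSMUSG00000070348, chromosome 7, 144929931 to 144939925, minus strand), had 41.5, 42.0, 43.4 and 43.0 CPM with zymosan and 22.2, 23.6, 25.1 and 28.1 CPM untreated in KO cells. In WT cells Ccnd1 had 30.1, 31.3, 30.8 and 29.9 CPM with zymosan and 26.6, 27.8, 27.8 and 28.9 CPM untreated. Here zymosan raised the level in KO cells by 0.78 ± 0.05 and in WT cells by 0.14 ± 0.05 (interaction 0.64 ± 0.08, adjusted p = 6.34e-05). Both calls held in all 16 fits that left out 1 library.

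Ribosome biogenesis genes were among those that fell less in KO. In a list of 99 such genes, drawn up after values were seen, 97 were tested, 20 were called higher, where 0.973% of all genes were, 1 was called lower and 88 had a positive interaction. The median interaction was 0.27, where it was -0.01 over all genes and 47.5% were positive. Median responses of the list were -0.58 in KO cells and -0.85 in WT cells, and untreated KO and WT cells differed by a median of -0.04. Mybbp1a, a nucleolar protein of RNA polymerase I transcription (ENSMUSG00000040463, chromosome 11, 72441355 to 72451768, plus strand), had 52.7, 55.7, 48.9 and 49.7 CPM with zymosan and 96.0, 95.3, 96.0 and 103 CPM untreated in KO cells. In WT cells Mybbp1a had 42.9, 40.1, 38.6 and 37.9 CPM with zymosan and 109.8, 103, 98.8 and 103 CPM untreated. The zymosan groups did not overlap, and the interaction was 0.46 ± 0.07, adjusted p = 0.00054. Diexf (0.58), Dkc1 (0.58, the pseudouridine synthase dyskerin), Rrp12 (0.57), Nob1 (0.51, an endonuclease that trims 18S rRNA), Nolc1 (0.49) and Polr1a (0.46, the largest subunit of RNA polymerase I) were among the others called higher. Rcl1, also a factor of small subunit processing, was the 1 called lower: it rose, by 0.60 ± 0.06 in KO cells and 1.11 ± 0.06 in WT cells (-0.51 ± 0.09, adjusted p = 0.0031). Dkc1 lost its call in 4 of 16 fits that left out 1 library (adjusted p up to 0.0683, without KO zymosan replicate 1), and Rrp12 in 2 of 16 fits that left out 1 library (adjusted p up to 0.0567, without KO zymosan replicate 1). The count of 20 was 35 with the replicate block within genotype, 11 without KO zymosan replicate 2, 35 in replicates 1 and 2 alone and 9 in replicates 3 and 4 alone, and the median was 0.22 to 0.29 over all alternatives. Cytosolic ribosomal protein genes had no call among 25, with a median of 0.07.

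Several nucleotide synthesis genes also fell less in KO. Of 31 genes of nucleotide and one-carbon synthesis, also listed after values were seen, 6 were called higher, where 0.973% of all genes were, and none lower, with a median of 0.27 and median responses of -0.78 in KO cells and -1.07 in WT cells. Gart, which catalyses several steps of purine synthesis (ENSMUSG00000022962, chromosome 16, 91621186 to 91646952, minus strand), had 23.6, 22.6, 21.4 and 23.5 CPM with zymosan and 47.3, 47.8, 49.2 and 57.0 CPM untreated in KO cells. In WT cells Gart had 16.9, 16.6, 16.6 and 16.5 CPM with zymosan and 49.99, 49.7, 52.8 and 55.1 CPM untreated. Its interaction was 0.50 ± 0.08, adjusted p = 0.00285. The zymosan groups of Gart did not overlap and the untreated groups did. Atic (0.33 ± 0.06, adjusted p = 0.00436) and Adsl (0.39 ± 0.08, adjusted p = 0.00866) act in the same pathway. Cad starts pyrimidine synthesis (0.55 ± 0.11, adjusted p = 0.00866) and Ctps makes CTP (0.71 ± 0.16, adjusted p = 0.0217). Mthfd1 supplies one-carbon units (0.52 ± 0.13, adjusted p = 0.0448). Aldh1l2, a mitochondrial one-carbon enzyme outside the list and named after its values were seen, had the opposite sign (-0.97 ± 0.23, adjusted p = 0.0285), with responses of 0.94 ± 0.17 in KO cells and 1.91 ± 0.16 in WT cells and a call lost in 8 of 16 fits that left out 1 library (adjusted p up to 0.0794, without KO untreated replicate 1). Ctps lost its call in 3 of 16 fits that left out 1 library (adjusted p up to 0.0758, without KO zymosan replicate 2) and Mthfd1 in 12 of 16 fits that left out 1 library (adjusted p up to 0.14, without KO zymosan replicate 2). The list had 10 higher calls and 1 lower with the replicate block within genotype, 4 without KO zymosan replicate 1, KO zymosan replicate 2 or WT zymosan replicate 2, and 2 in replicates 3 and 4 alone.

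The promoters of these growth genes were searched for CACGTG, the E-box that MYC-MAX dimers are known to bind, a palindrome with the same letters on both strands. It occurred in the 300 bases from 250 before to 50 after the RefSeq start for 20 of 82 ribosome biogenesis genes with an entry (24.4%), 5 of 28 nucleotide synthesis genes (17.9%) and 11.6% of all 10444 tested genes with an entry. It was held by 19 of 104 genes called higher (18.3%) and by 14 of 86 genes called lower (16.3%). Of the 15 ribosome biogenesis genes called higher with an entry, 4 held it (Mybbp1a, Rbm19, Tsr1 and Utp20). Atic is printed as a case with the letters just before the start, its 250 upstream bases from RefSeq (GRCm38.p6, chr1:71556906-71557155, plus strand) with CACGTG in capitals, 7 bases before the start.
Atic: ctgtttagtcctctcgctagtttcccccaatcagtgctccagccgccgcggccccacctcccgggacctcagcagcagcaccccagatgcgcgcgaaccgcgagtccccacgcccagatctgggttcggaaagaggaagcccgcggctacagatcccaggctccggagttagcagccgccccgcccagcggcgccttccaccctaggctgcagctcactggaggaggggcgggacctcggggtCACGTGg
A match describes the letters in this window and shows no binding.

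Most proliferation genes fell in both genotypes, and 4 of them fell less in KO. Of 26 tested, 23 fell in each genotype, where 35.2% of all genes fell in KO cells and 35.9% in WT cells. The interaction was called for 4, all higher, where 0.973% of all genes were, and the median was 0.27. Plk1, a mitotic kinase (ENSMUSG00000030867, chromosome 7, 122159439 to 122169873, plus strand), had 4.69, 5.37, 4.10 and 3.30 CPM with zymosan and 8.13, 8.77, 7.50 and 8.09 CPM untreated in KO cells. In WT cells Plk1 had 2.35, 3.36, 2.14 and 2.68 CPM with zymosan and 9.29, 8.48, 7.89 and 8.31 CPM untreated. Its interaction was 0.79 ± 0.17, adjusted p = 0.0154. In the zymosan groups the lowest KO library lay below the highest WT library. Ccnb1, cyclin B1 (0.52 ± 0.12, adjusted p = 0.026), Mcm6 (0.34 ± 0.07, adjusted p = 0.0092) and Mcm3 (0.28 ± 0.07, adjusted p = 0.0376), subunits of the replicative helicase, were the others; the Mcm genes were named after their values were seen. Cenpf, a kinetochore protein outside the list, had 0.76 ± 0.16, adjusted p = 0.0133. Plk1 lost its call without KO zymosan replicate 2 (adjusted p = 0.0565), Ccnb1 in 6 of 16 fits that left out 1 library (adjusted p up to 0.0799, without KO zymosan replicate 1) and Mcm3 in 10 of 16 fits that left out 1 library (adjusted p up to 0.113, without KO zymosan replicate 2). The list count was 1 without KO zymosan replicate 2, 2 without KO zymosan replicate 1, WT zymosan replicate 3 or 4, or WT untreated replicate 1 or 2, 7 without WT zymosan replicate 1, 6 with the replicate block within genotype, and 11 higher and 1 lower in replicates 1 and 2 alone. In replicates 3 and 4 alone none was called higher and 1 lower.

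A glutamine transporter, a tRNA synthetase and 2 fatty acid genes were called higher. Slc1a5, the glutamine transporter ASCT2, named after its values were seen (ENSMUSG00000001918, chromosome 7, 16781340 to 16798274, plus strand), had 33.99, 34.9, 27.8 and 33.0 CPM with zymosan and 82.1, 84.5, 82.6 and 85.9 CPM untreated in KO cells. In WT cells Slc1a5 had 20.8, 22.1, 22.8 and 22.4 CPM with zymosan and 74.4, 76.5, 76.6 and 85.2 CPM untreated. The interaction of Slc1a5 was 0.46 ± 0.09, adjusted p = 0.00605. Its zymosan groups did not overlap. Iars, isoleucyl-tRNA synthetase, had responses of -1.38 ± 0.07 in KO cells and -1.85 ± 0.07 in WT cells (0.47 ± 0.09, adjusted p = 0.00866). In cholesterol and fatty acid synthesis the list median was 0.08, with 28 positive values among 30 genes. Of these 30, 2 were called, both higher, where 0.973% of all genes were. These were Fasn, fatty acid synthase (0.41 ± 0.10, adjusted p = 0.0302), and Fads1, a fatty acid desaturase (0.40 ± 0.10, adjusted p = 0.0473). Fasn lost its call in 8 of 16 fits that left out 1 library (adjusted p up to 0.0901, without KO zymosan replicate 2) and Fads1 in 11 of 16 fits that left out 1 library (adjusted p up to 0.134, without KO zymosan replicate 2). None of 25 oxidative phosphorylation genes was called (median 0.02).

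Several genes outside these pathways fell less in KO or rose more. Plau, the urokinase plasminogen activator (ENSMUSG00000021822, chromosome 14, 20836660 to 20843385, plus strand), had 87.9, 90.1, 111 and 106 CPM with zymosan and 211, 213, 237 and 229 CPM untreated in KO cells. In WT cells Plau had 46.9, 44.0, 70.0 and 66.7 CPM with zymosan and 190.4, 200.1, 255 and 244 CPM untreated. In every group of Plau replicates 3 and 4 were above replicates 1 and 2, and with zymosan the KO libraries were all above the WT libraries. The interaction was 0.79 ± 0.16, adjusted p = 0.0092, with 0.85 in replicates 1 and 2 and 0.76 in replicates 3 and 4. Daglb, a diacylglycerol lipase that yields the endocannabinoid 2-arachidonoylglycerol (ENSMUSG00000039206, chromosome 5, 143464584 to 143505942, plus strand), had 11.3, 10.2, 9.96 and 9.9998 CPM with zymosan and 39.3, 39.4, 41.0 and 41.9 CPM untreated in KO cells. In WT cells Daglb had 5.54, 5.43, 6.81 and 7.12 CPM with zymosan and 35.1, 35.9, 42.3 and 44.6 CPM untreated. The interaction of Daglb was 0.70 ± 0.11, adjusted p = 0.00228. Lrmp, an ER membrane protein of lymphoid and myeloid cells, had responses of -1.06 ± 0.03 in KO cells and -1.43 ± 0.03 in WT cells (0.37 ± 0.05, adjusted p = 8.32e-05). Vcam1, an adhesion molecule for leukocytes (ENSMUSG00000027962, chromosome 3, 116109949 to 116129688, minus strand), rose by 1.82 ± 0.11 in KO cells and 1.10 ± 0.10 in WT cells. Its levels were 5.90, 6.06, 6.27 and 7.06 CPM with zymosan and 1.72, 1.67, 1.94 and 1.83 CPM untreated in KO cells. In WT cells Vcam1 had 7.04, 7.99, 6.89 and 7.70 CPM with zymosan and 3.61, 3.93, 3.56 and 2.76 CPM untreated. The untreated level was lower in KO (-0.95), and with zymosan the genotypes did not pass (-0.23, adjusted p = 0.0771), so the interaction (0.72 ± 0.14, adjusted p = 0.00866) came with a gap between the untreated groups. Each of these 4 calls held in all 16 fits that left out 1 library.

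Commd10, a COMM domain protein of endosomal sorting (ENSMUSG00000042705, chromosome 18, 46958816 to 47234284, plus strand), had the smallest p of all genes. Its levels were 39.9, 39.6, 41.3 and 39.4 CPM with zymosan and 35.9, 32.9, 33.6 and 32.5 CPM untreated in KO cells. In WT cells Commd10 had 18.1, 17.8, 18.9 and 19.4 CPM with zymosan and 24.3, 25.7, 26.6 and 25.4 CPM untreated. In both conditions every KO library was above every WT library. Responses were 0.25 ± 0.04 in KO cells and -0.46 ± 0.05 in WT cells, opposite in sign, and the interaction was 0.71 ± 0.06, adjusted p = 8.92e-07. It was already higher in untreated KO cells, by 0.40 ± 0.04. Ahr, the aryl hydrocarbon receptor, a ligand-activated transcription factor, also had responses of unlike sign (0.31 ± 0.05 in KO cells and -0.06 ± 0.05 in WT cells, interaction 0.37 ± 0.06, adjusted p = 0.00336); it was named after its values were seen, and the WT response did not pass (adjusted p = 0.257).

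A pair of ER stress genes fell with zymosan in KO cells, where their level was lower than in WT cells in both conditions. Dnajb9, the ER co-chaperone ERdj4 and a known XBP1s target (ENSMUSG00000014905, chromosome 12, 44205559 to 44210326, minus strand), had 5.73, 6.06, 7.45 and 7.70 CPM with zymosan and 8.11, 7.90, 11.0 and 8.96 CPM untreated in KO cells. In WT cells Dnajb9 had 30.3, 29.2, 30.4 and 32.2 CPM with zymosan and 23.8, 23.5, 26.2 and 24.7 CPM untreated. The KO ranges were below the WT ranges in both conditions. Zymosan lowered it in KO cells and raised it in WT cells, with responses of -0.42 ± 0.09 in KO cells and 0.32 ± 0.08 in WT cells and an interaction of -0.74 ± 0.12, adjusted p = 0.00285. Creb3l2, an ER membrane transcription factor related to ATF6 (ENSMUSG00000038648, chromosome 6, 37327255 to 37442146, minus strand), had 1.31, 1.30, 0.813 and 1.14 CPM with zymosan and 2.54, 2.10, 1.49 and 1.83 CPM untreated in KO cells. In WT cells Creb3l2 had 18.9, 18.8, 20.1 and 19.2 CPM with zymosan and 20.04, 19.4, 16.2 and 16.8 CPM untreated. Its KO libraries were all far below its WT libraries. The interaction was -0.87 ± 0.18, adjusted p = 0.00866, from a fall within a low level in KO cells, while the WT response did not pass (adjusted p = 0.345). Both calls held in all 16 fits that left out 1 library.

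XBP1s targets were lower in KO by their medians in both conditions, and 3 had a called interaction. Of 49 tested, 3 were called lower and none higher, where 0.846% of all genes were called lower, and 38 had a negative interaction. The median interaction was -0.07, beside medians of -0.54 for KO over WT with zymosan and -0.45 for KO over WT untreated. Creld2, an ER stress-inducible folding factor (ENSMUSG00000023272, chromosome 15, 88819646 to 88826683, plus strand), had 29.9, 30.0, 29.5 and 31.4 CPM with zymosan and 30.6, 31.8, 30.9 and 29.9 CPM untreated in KO cells. In WT cells Creld2 had 64.1, 66.0, 67.4 and 72.3 CPM with zymosan and 55.2, 56.9, 60.5 and 61.4 CPM untreated. The WT ranges with zymosan and untreated did not overlap, and the KO ranges did (-0.23 ± 0.06, adjusted p = 0.0397). Spcs2, a signal peptidase subunit named after its values were seen, had -0.22 ± 0.06, adjusted p = 0.0479. Manf, a secreted ER stress-inducible factor from the list of ER chaperones, had responses of 0.18 ± 0.06 in KO cells and 0.49 ± 0.06 in WT cells (-0.31 ± 0.08, adjusted p = 0.0463) and was the 1 call among 16 genes there. Selenos, an ER degradation factor named after its values were seen, had -0.41 ± 0.09, adjusted p = 0.0156. Creld2 lost its call in 11 of 16 fits that left out 1 library (adjusted p up to 0.0968, without WT zymosan replicate 4), Spcs2 in 12 of 16 fits that left out 1 library (adjusted p up to 0.104, without KO untreated replicate 3) and Manf in 11 of 16 fits that left out 1 library (adjusted p up to 0.124, without KO zymosan replicate 2). The 3 calls among XBP1s targets became 10, all lower, with the replicate block within genotype and 1 without KO zymosan replicate 1 or 2, KO untreated replicate 1, 2 or 3, WT zymosan replicate 2 or 4, or WT untreated replicate 1 or 2. Among 37 targets of PERK and ATF4, Nupr1, a stress-induced transcriptional cofactor (-0.59 ± 0.11, adjusted p = 0.00436), and Trib3, a pseudokinase that restrains the pathway (-0.36 ± 0.10, adjusted p = 0.0489), were called lower and Iars higher (median 0.03). Trib3 lost its call in 12 of 16 fits that left out 1 library (adjusted p up to 0.134, without KO zymosan replicate 2). Its level was higher in KO in both conditions (KO over WT 0.61 untreated and 0.25 with zymosan). None of 14 known substrates of IRE1-dependent RNA decay was called (median -0.03).

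Promoters of XBP1s targets were searched for CCACGT on either strand, letters found in XBP1 and ATF6 sites that overlap the E-box CACGTG where they read CCACGTG. It occurred in 15 of 39 targets with an entry (38.5%), 26 of 82 ribosome biogenesis genes (31.7%) and 13.1% of all tested genes with an entry. The ER stress response element, CCAAT and CCACG with 9 bases between them on either strand, occurred in 4 of the 39 targets, 4 of 12 ER chaperones and 0.163% of all tested genes. The 250 bases before the start are printed for the co-chaperone with the largest interaction among targets and for Creld2, which was called and holds the element, both from RefSeq (GRCm38.p6). For Dnajb9 (chr12:44210069-44210318, minus strand) capitals mark CCACGT, and for Creld2 (chr15:88819396-88819645, plus strand) they mark both parts of the element, read on the other strand.
Dnajb9: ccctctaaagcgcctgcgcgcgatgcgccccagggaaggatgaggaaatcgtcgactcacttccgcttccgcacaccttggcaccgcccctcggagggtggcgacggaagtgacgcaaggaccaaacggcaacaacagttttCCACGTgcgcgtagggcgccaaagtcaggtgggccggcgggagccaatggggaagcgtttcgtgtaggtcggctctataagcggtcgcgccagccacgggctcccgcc
Creld2: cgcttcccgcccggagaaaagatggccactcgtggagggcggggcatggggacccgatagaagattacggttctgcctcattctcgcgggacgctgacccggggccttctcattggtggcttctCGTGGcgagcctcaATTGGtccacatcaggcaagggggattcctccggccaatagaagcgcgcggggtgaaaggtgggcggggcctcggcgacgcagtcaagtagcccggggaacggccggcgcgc
In Dnajb9 the letters read on to CCACGTG, which also holds CACGTG, and nothing about factor binding follows from either sequence.

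Of the receptors for microbial products, Tlr1 and Cd14 rose less in KO. Tlr1, which pairs with Toll-like receptor 2 (ENSMUSG00000044827, chromosome 5, 64924679 to 64933563, minus strand), had 27.5, 27.2, 28.2 and 25.6 CPM with zymosan and 8.62, 9.42, 8.59 and 8.63 CPM untreated in KO cells. In WT cells Tlr1 had 34.3, 32.5, 31.1 and 30.8 CPM with zymosan and 7.68, 7.11, 7.50 and 7.36 CPM untreated. KO libraries were above WT libraries untreated and below them with zymosan. The responses were 1.62 ± 0.05 in KO cells and 2.12 ± 0.05 in WT cells, an interaction of -0.50 ± 0.07, adjusted p = 0.000238. Cd14, a co-receptor for bacterial products, had responses of 1.64 ± 0.07 in KO cells and 2.07 ± 0.07 in WT cells (-0.43 ± 0.10, adjusted p = 0.0267), with a call lost in 7 of 16 fits that left out 1 library (adjusted p up to 0.0694, without KO zymosan replicate 2). These were the 2 calls among 34 fungal and Toll-like receptors and adaptors (median -0.08), where 0.846% of all genes were called lower. The count was 1 without KO zymosan replicate 1 or 2, KO untreated replicate 1 or 2, WT zymosan replicate 2, or WT untreated replicate 3 or 4, and 4 with the replicate block within genotype.

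NF-κB targets and cytokine feedback held more calls, all lower. Of 24 NF-κB targets and feedback genes, all rose in both genotypes, where 31.6% of all genes rose in KO cells and 34.3% in WT cells. Of these 24, 4 were called lower, where 0.846% of all genes were. A negative interaction was held by 21 (median -0.15), where 47.5% of all genes had a positive one. Socs3, which blocks signalling from cytokine receptors through JAK kinases (ENSMUSG00000053113, chromosome 11, 117966079 to 117970047, minus strand), had 767, 732, 709 and 698 CPM with zymosan and 151, 152, 146 and 143 CPM untreated in KO cells. In WT cells Socs3 had 848, 959.8, 834 and 889.97 CPM with zymosan and 129, 133, 135 and 136 CPM untreated. With zymosan the KO libraries were below the WT libraries, and untreated the KO libraries were all above them (-0.43 ± 0.07, adjusted p = 0.00187). Bcl3, a nuclear IκB protein (-0.43 ± 0.08, adjusted p = 0.00592), Sod2, mitochondrial superoxide dismutase (-0.30 ± 0.06, adjusted p = 0.00866), and Tnip1, an inhibitor of NF-κB signalling (-0.25 ± 0.06, adjusted p = 0.016), were the others; Sod2 and Tnip1 were named after their values were seen, and Tnip1 lost its call in 1 of 16 fits that left out 1 library (adjusted p up to 0.0534, without KO zymosan replicate 2). In a list of 36 cytokine receptors, JAK, STAT and SOCS genes, drawn up after values were seen, 6 were called lower, where 0.846% of all genes were, and none higher (median -0.09). Beside Socs3 these were Stat3 (-0.33), the interleukin 4 receptor Il4ra (-0.32), the phosphatase Ptpn1 (-0.32), the type I interferon receptor chain Ifnar2 (-0.26) and Socs2 (-0.18), with adjusted p of 0.00592 to 0.0464. Ptpn1 and Socs2 were higher in untreated KO cells (KO over WT 0.28 and 0.22). With zymosan they did not pass between genotypes (adjusted p of 0.608 and 0.414). Socs2 lost its call in 13 of 16 fits that left out 1 library (adjusted p up to 0.128, without KO zymosan replicate 2) and Ifnar2 in none. With the replicate block within genotype these counts were 8 and 8, and in replicates 3 and 4 alone 2 and 1.

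Inflammatory cytokines rose strongly in both genotypes, and 1 of 27 was called, where 1.82% of all genes were. Il1b, interleukin 1β (ENSMUSG00000027398, chromosome 2, 129364570 to 129371139, minus strand), had 4388, 4427, 4713 and 4308 CPM with zymosan and 313, 309, 335 and 324 CPM untreated in KO cells. In WT cells Il1b had 5738, 5727, 5640.1 and 5688 CPM with zymosan and 348, 363, 321 and 309 CPM untreated. Every KO library with zymosan was below every WT library with zymosan, while untreated levels overlapped (-0.29 ± 0.07, adjusted p = 0.0397). The call was lost in 12 of 16 fits that left out 1 library (adjusted p up to 0.0903, without WT untreated replicate 3). The list median was -0.20, with 21 negative values. Of the 27, 25 rose in KO cells, as did 25 in WT cells, where 31.6% and 34.3% of all genes rose. The cytokine calls numbered 8 in replicates 1 and 2 alone, 5 in replicates 3 and 4 alone and 5 lower with 1 higher under the replicate block within genotype. Of 21 chemokines 1 was called, Cx3cl1 (fractalkine), which did not pass as changed in KO cells and fell in WT cells (-0.04 ± 0.05 in KO cells and -0.37 ± 0.05 in WT cells, interaction 0.33 ± 0.06, adjusted p = 0.00866). None of 40 interferon-stimulated genes was called, and the median interaction was -0.07. All 40 rose in both genotypes, beside 31.6% of all genes in KO cells and 34.3% in WT cells. In replicates 1 and 2 alone 1 of the 40 was called higher and 9 lower. Ifitm3, an interferon-induced membrane protein outside the list and named after its values were seen, was called lower (-0.45 ± 0.10, adjusted p = 0.0131), with responses of 1.59 ± 0.07 in KO cells and 2.04 ± 0.07 in WT cells. It was higher in untreated KO cells (KO over WT 0.35) and did not pass between genotypes with zymosan (-0.10, adjusted p = 0.335).

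Interferon-inducible GTPases and MHC class I genes held 2 lower calls each, where 0.846% of all genes were called lower. Gbp3, a guanylate-binding protein that acts on vacuoles of pathogens (ENSMUSG00000028268, chromosome 3, 142560026 to 142573209, plus strand), had 325, 321, 436 and 401 CPM with zymosan and 25.1, 26.1, 32.2 and 33.2 CPM untreated in KO cells. In WT cells Gbp3 had 359, 374, 398 and 413 CPM with zymosan and 15.6, 16.2, 20.8 and 23.1 CPM untreated. Untreated KO libraries were above WT libraries and the zymosan groups overlapped, so the interaction (-0.68 ± 0.16, adjusted p = 0.0282) came with a difference between untreated groups of 0.62. Gbp2 had -0.65 ± 0.16, adjusted p = 0.0351 with an untreated difference of 0.59. Gbp3 lost its call in 7 of 16 fits that left out 1 library (adjusted p up to 0.0791, without KO zymosan replicate 2) and Gbp2 in 9 of 16 fits that left out 1 library (adjusted p up to 0.0957, without KO zymosan replicate 2). In the list of 13 such GTPases the median was -0.19 and calls numbered 5 with the replicate block within genotype and 0 without KO zymosan replicate 1 or 2, KO untreated replicate 3 or 4, WT zymosan replicate 4, or WT untreated replicate 1 or 2. Among 19 MHC class I presentation genes 18 had a negative interaction (median -0.15), and H2-T22 (-0.41 ± 0.08, adjusted p = 0.00929) and H2-Q4 (-0.24 ± 0.06, adjusted p = 0.0399) were called; these belong to a family of near-identical genes, between which reads may be split uncertainly. H2-Q4 lost its call in 12 of 16 fits that left out 1 library (adjusted p up to 0.108, without KO zymosan replicate 2). The MHC class I count was 5 with the block and 11 in replicates 1 and 2 alone. No gene was called among 13 of MHC class II (median -0.04), and DC maturation genes gave 2 calls of 19 (median -0.13), Socs2 and the checkpoint ligand Cd274 (-0.26 ± 0.06, adjusted p = 0.0165), both absent without KO zymosan replicate 2. Cd274 was higher in untreated KO cells (KO over WT 0.22) and did not pass between genotypes with zymosan (-0.04, adjusted p = 0.532).

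Genes of transport, a hormone and an interleukin decoy were among those that rose less in KO by the widest margins. Pdzk1ip1, a membrane protein that binds transporter scaffolds (ENSMUSG00000028716, chromosome 4, 115088708 to 115093899, plus strand), had 8.504, 7.95, 8.91 and 8.20 CPM with zymosan and 2.03, 2.34, 1.85 and 1.86 CPM untreated in KO cells. In WT cells Pdzk1ip1 had 12.1, 13.9, 7.81 and 8.499 CPM with zymosan and 1.17, 1.51, 0.884 and 0.958 CPM untreated. In WT with zymosan, replicates 1 and 2 were above all KO libraries and replicates 3 and 4 were not (-1.17 ± 0.24, adjusted p = 0.0092, with -1.36 in replicates 1 and 2 and -0.94 in replicates 3 and 4). Pdzk1ip1 was higher in untreated KO cells (KO over WT 0.84, adjusted p = 0.00548) and did not pass between genotypes with zymosan (-0.34, adjusted p = 0.0719). Nppc, the precursor of C-type natriuretic peptide (ENSMUSG00000026241, chromosome 1, 86666291 to 86670571, minus strand), had 14.5, 12.7, 15.9 and 17.5 CPM with zymosan and 4.12, 3.72, 4.97 and 3.82 CPM untreated in KO cells. In WT cells Nppc had 21.98, 18.1, 22.4 and 20.7 CPM with zymosan and 2.23, 2.79, 3.62 and 2.80 CPM untreated. Each WT library with zymosan was above each KO library with zymosan, and the interaction was -0.99 ± 0.17, adjusted p = 0.00285. Nppc was higher in untreated KO cells (KO over WT 0.53, adjusted p = 0.00763) and lower in KO with zymosan (-0.46, adjusted p = 0.00162). Slc1a2, a glutamate transporter (ENSMUSG00000005089, chromosome 2, 102658659 to 102790784, plus strand), had 43.6, 40.2, 43.2 and 47.01 CPM with zymosan and 0.983, 0.826, 1.02 and 1.08 CPM untreated in KO cells. In WT cells Slc1a2 had 76.1, 70.2, 77.3 and 74.2 CPM with zymosan and 1.15, 1.05, 0.754 and 0.670 CPM untreated. It rose by 5.47 ± 0.09 in KO cells and 6.36 ± 0.09 in WT cells, with an interaction of -0.89 ± 0.15, adjusted p = 0.00315 and -0.52 in replicates 1 and 2 and -1.31 in replicates 3 and 4. Il18bp, the decoy that neutralises interleukin 18, rose by 1.49 ± 0.07 in KO cells and 2.15 ± 0.07 in WT cells (-0.66 ± 0.10, adjusted p = 0.00154), and Acpp, prostatic acid phosphatase, by 1.36 ± 0.06 in KO cells and 1.95 ± 0.06 in WT cells (-0.60 ± 0.09, adjusted p = 0.000856). Il18bp was higher in untreated KO cells (KO over WT 0.56, adjusted p = 9.86e-06) and did not pass between genotypes with zymosan (-0.11, adjusted p = 0.301). All 5 calls held in each of the 16 fits that left out 1 library.

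Retinoid genes, listed after values were seen, gave 4 calls of 18, where 1.82% of all genes were called. Cyp26b1, which breaks down retinoic acid (ENSMUSG00000063415, chromosome 6, 84571414 to 84593908, minus strand), had 11.3, 11.3, 11.2 and 13.2 CPM with zymosan and 11.3, 10.9, 11.1 and 12.3 CPM untreated in KO cells. In WT cells Cyp26b1 had 9.69, 7.31, 8.87 and 9.20 CPM with zymosan and 4.69, 4.34, 5.56 and 4.92 CPM untreated. In KO cells its level did not pass as changed by zymosan and was already high untreated, while in WT cells it rose (0.04 ± 0.08 in KO cells and 0.84 ± 0.09 in WT cells, interaction -0.80 ± 0.12, adjusted p = 0.000976). Aldh1a2, which makes retinoic acid, rose by 1.53 ± 0.04 in KO cells and 1.81 ± 0.04 in WT cells (-0.27 ± 0.06, adjusted p = 0.0131), and Tgm2, the retinoid-inducible transglutaminase, by 0.69 ± 0.04 in KO cells and 1.03 ± 0.04 in WT cells (-0.34 ± 0.05, adjusted p = 0.00154). Aldh1a2 was higher in KO in both conditions, with KO over WT of 0.68 untreated and 0.41 with zymosan. Its means with zymosan were 490 CPM in KO cells and 370 CPM in WT cells. Rarb, a retinoic acid receptor, had the opposite sign (1.58 ± 0.38, adjusted p = 0.0309) at levels of at most 1.85 CPM, with a call lost in 6 of 16 fits that left out 1 library (adjusted p up to 0.103, without WT zymosan replicate 4). The list median was 0.05, with 10 positive values.

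Genes called lower also included dual-specificity phosphatases, regulators of glycolysis, Nos2 and Hmox1. Dusp1, which inactivates MAP kinases and is an immediate early gene (ENSMUSG00000024190, chromosome 17, 26505590 to 26562128, minus strand), had 36.8, 35.8, 45.4 and 45.2 CPM with zymosan and 18.9, 19.1, 21.8 and 21.96 CPM untreated in KO cells. In WT cells Dusp1 had 56.6, 65.1, 55.4 and 63.9 CPM with zymosan and 19.5, 19.2, 19.9 and 23.3 CPM untreated. With zymosan its KO libraries were below its WT libraries (-0.56 ± 0.11, adjusted p = 0.00966). Dusp16 had -0.47 ± 0.10, adjusted p = 0.0102 and Dusp2 -0.74 ± 0.19, adjusted p = 0.0473, with the call of Dusp2 lost in 13 of 16 fits that left out 1 library (adjusted p up to 0.111, without KO zymosan replicate 2). These were 3 calls of 11 in a list drawn up after values were seen (median -0.08), where 0.846% of all genes were called lower. Of 29 glycolysis and hypoxia genes, Pfkfb3, which makes the activator of phosphofructokinase (-0.55 ± 0.10, adjusted p = 0.00592), and Hif1a (-0.34 ± 0.08, adjusted p = 0.022) were called, with a list median of -0.05. Hif1a lost its call in 4 of 16 fits that left out 1 library (adjusted p up to 0.0688, without KO zymosan replicate 2). Nos2, inducible nitric oxide synthase (-0.44 ± 0.11, adjusted p = 0.0363), and Hmox1, haem oxygenase 1 (-0.26 ± 0.07, adjusted p = 0.0451), were the 1 call of 11 and of 19 in their lists, with calls lost in 9 and 12 of 16 such fits. Hif1a and Hmox1 were higher in untreated KO cells (KO over WT 0.25 and 0.21). With zymosan they did not pass between genotypes (adjusted p of 0.258 and 0.423). Bcl2l11, the death protein BIM, named after its values were seen, rose by 0.37 ± 0.05 in KO cells and 0.81 ± 0.05 in WT cells (-0.44 ± 0.08, adjusted p = 0.00352).

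**Figure D3:**
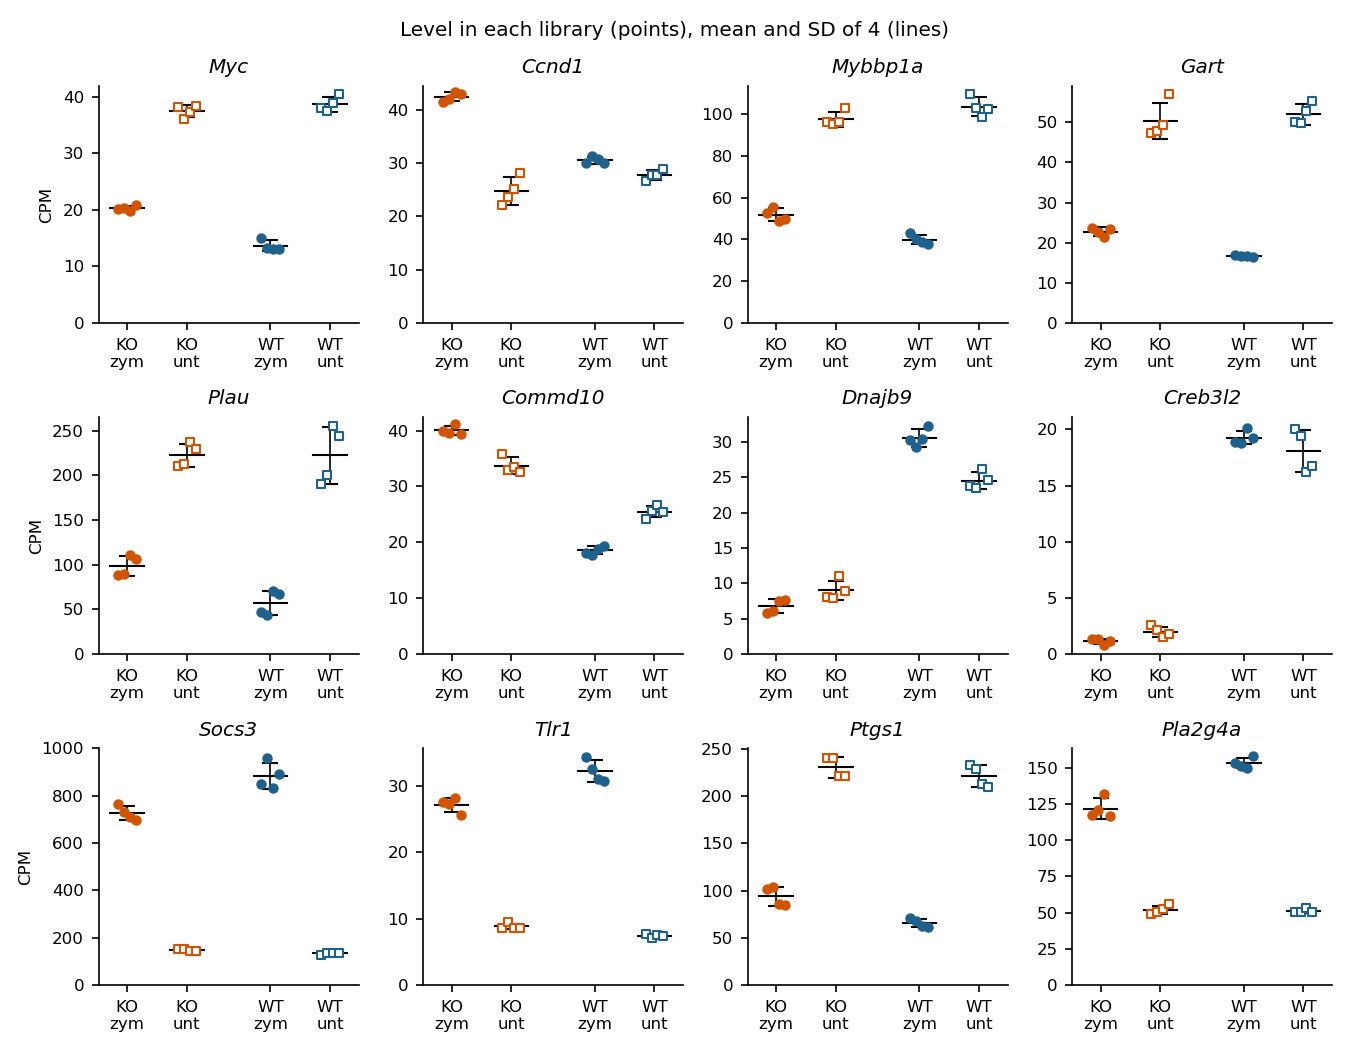
CPM of 12 genes in each library for KO with zymosan, KO untreated, WT with zymosan and WT untreated, left to right in each panel, with axes from 0. Points are libraries and lines are the mean and SD of 4; Myc is at 19.9 CPM or more in KO with zymosan and at 15.1 CPM or less in WT with zymosan, while Dnajb9 and Creb3l2 are low in all KO libraries.

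Prostaglandin synthesis, which the series title names, held 2 calls among 12 genes, of opposite sign, where 1.82% of all genes were called. Ptgs1, cyclooxygenase 1, present without stimulus (ENSMUSG00000047250, chromosome 2, 36230426 to 36252272, plus strand), had 102, 103, 85.6 and 84.8 CPM with zymosan and 241, 240.5, 221 and 221 CPM untreated in KO cells. In WT cells Ptgs1 had 70.7, 67.4, 62.4 and 61.9 CPM with zymosan and 233, 228, 213 and 209.9 CPM untreated. KO and WT overlapped untreated, and with zymosan every KO library was above every WT library. Its responses were -1.30 ± 0.06 in KO cells and -1.75 ± 0.07 in WT cells, and the interaction was 0.46 ± 0.09, adjusted p = 0.00866, a call that held in all 16 fits that left out 1 library. Pla2g4a, the phospholipase that releases arachidonate from membranes (ENSMUSG00000056220, chromosome 1, 149829618 to 149961290, minus strand), had 118, 121, 132 and 117 CPM with zymosan and 49.2, 50.1, 52.2 and 55.9 CPM untreated in KO cells. In WT cells Pla2g4a had 153, 151, 149.97 and 158 CPM with zymosan and 50.3, 50.2, 53.3 and 50.2 CPM untreated. It rose in both genotypes, less in KO (-0.35 ± 0.08, adjusted p = 0.0209), and the call ended without KO zymosan replicate 1 (adjusted p = 0.0534) or replicate 2 (adjusted p = 0.0521).

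The inducible enzymes did not pass. Ptgs2, cyclooxygenase 2 (ENSMUSG00000032487, chromosome 1, 150100031 to 150108227, plus strand), had 1174, 1185, 1414 and 1193 CPM with zymosan and 12.2, 11.1, 16.9 and 14.3 CPM untreated in KO cells. In WT cells Ptgs2 had 1489, 1456, 1629.8 and 1654 CPM with zymosan and 16.3, 15.5, 13.7 and 11.5 CPM untreated. It rose strongly in both genotypes, by 6.51 ± 0.13 in KO cells and 6.78 ± 0.13 in WT cells, and the interaction was -0.26 ± 0.15, adjusted p = 0.492. With zymosan every KO library was below every WT library, and untreated they overlapped. The sign of the interaction differed between replicate pairs, with 0.12 in replicates 1 and 2 and -0.64 in replicates 3 and 4. Ptges, the inducible prostaglandin E synthase (ENSMUSG00000050737, chromosome 2, 30889471 to 30929863, minus strand), had 100, 98.0, 79.8 and 78.3 CPM with zymosan and 11.7, 11.2, 10.5 and 11.5 CPM untreated in KO cells. In WT cells Ptges had 140.4, 146, 137 and 139 CPM with zymosan and 16.04, 15.5, 12.997 and 13.1 CPM untreated. Its levels were lower in KO in both conditions, and its interaction was -0.30 ± 0.10, adjusted p = 0.147, with -0.07 in replicates 1 and 2 and -0.57 in replicates 3 and 4. Ptges2 (-0.14 ± 0.10, adjusted p = 0.603) and Ptges3 (-0.00 ± 0.08, adjusted p = 1) did not pass either. A p above the threshold does not show equal responses. None of 5 prostanoid receptors or 12 lipoxygenase and leukotriene genes was called (medians 0.00 and 0.08).

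**Figure D4:**
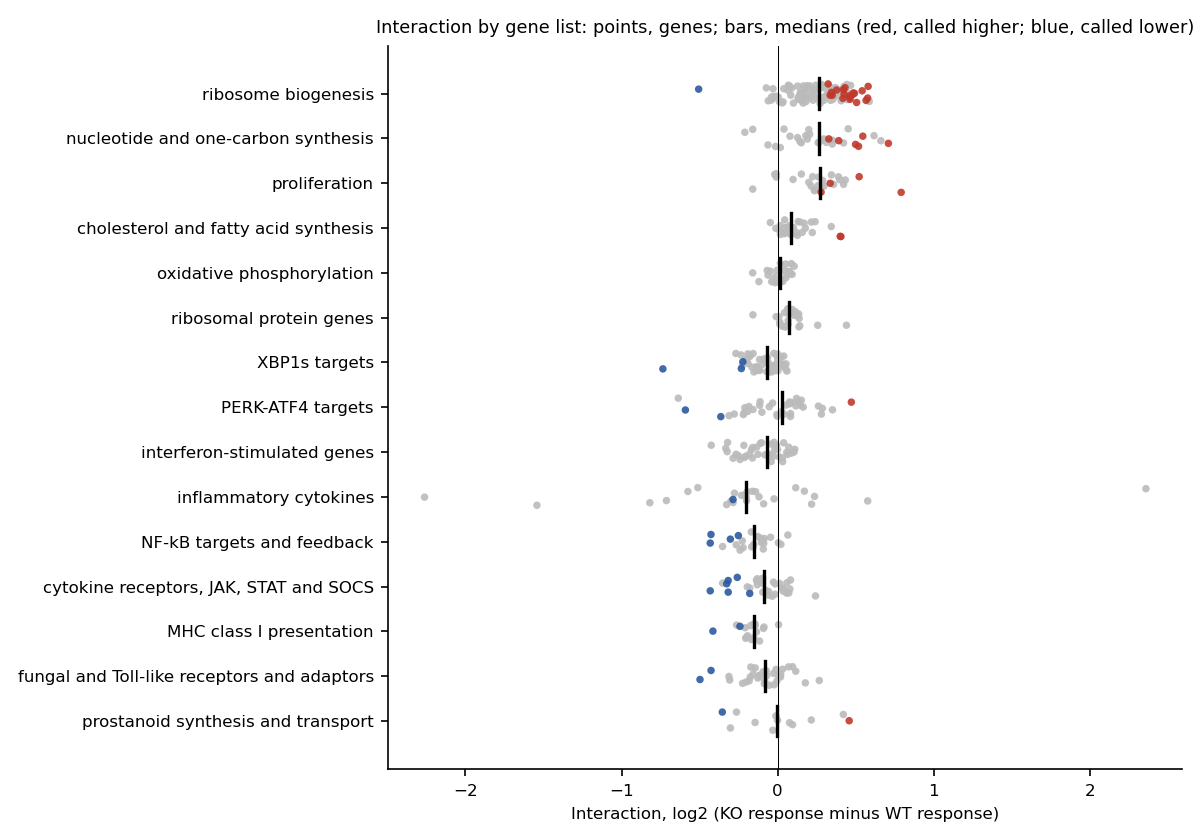
Interaction (log2, KO response minus WT response) of the tested members of 15 gene lists, 1 point per gene, with red for genes called higher, blue for genes called lower and grey for the rest. Bars are list medians, 0.27 for ribosome biogenesis, nucleotide synthesis and proliferation and -0.20 for inflammatory cytokines.

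Markers of other cell types were read beside these results. None of the 83 tested genes of 9 marker lists had a called interaction, where 1.82% of all tested genes did. Eosinophil markers summed to 70.8 to 81.3 CPM in KO with zymosan, 70.7 to 76.8 CPM in KO untreated, 976 to 1315 CPM in WT with zymosan and 875 to 1160.2 CPM in WT untreated. The gap was uneven over the list. Epx, eosinophil peroxidase, had means of 0.754 CPM in KO with zymosan, 0.755 CPM in KO untreated, 172 CPM in WT with zymosan and 187 CPM in WT untreated. Siglecf, a lectin of eosinophils, had 18.1 CPM in KO with zymosan, 22.9 CPM in KO untreated, 20.01 CPM in WT with zymosan and 25.7 CPM in WT untreated, and Cebpe, a granulocyte transcription factor, had 20.6, 18.7, 27.7 and 25.04 CPM in the same order. In bulk samples fewer cells of a type and less RNA per cell cannot be told apart, and the part of this gap in the interaction was not tested. Neutrophil markers summed to 3510 to 4599 CPM in KO with zymosan, 3357 to 4145 CPM in KO untreated, 4097 to 5663 CPM in WT with zymosan and 3817 to 5047 CPM in WT untreated. Lymphocyte markers summed to at most 2.95 CPM in any library, and 8 of their 14 genes did not pass the filter.

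Whether these differences were particular to zymosan was tested against the interaction for LPS, taken as the zymosan interaction minus the LPS interaction. It was called for 209 genes (1.47%), 119 of them higher (0.839%) and 90 lower (0.634%). The untreated samples cancel in this contrast. With summed pairs no gene was called, with 869 of 15378 genes at an unadjusted p under 0.05 by edgeR, and the pair as a term within genotype again gave 0 calls. Leaving out 1 library gave 24 to 224 higher and 22 to 155 lower calls: the total was 46 to 97 without KO zymosan replicate 3 or 4, WT zymosan replicate 1 or 2, KO LPS replicate 1 or 2, or WT LPS replicate 1, 3 or 4, and 379 without WT zymosan replicate 4. The replicate block within genotype gave 688 higher and 417 lower calls. Of the genes described above, Myc, Dnajb9, Socs3, Tlr1, Pla2g4a, Gart, Plau and Nppc did not pass, so a difference between stimuli was not shown for them. Their LPS interactions had the same sign as those for zymosan. The LPS interaction passed for Myc (0.83), Dnajb9 (-1.03), Socs3 (-0.40), Tlr1 (-0.62), Gart (0.35) and Nppc (-1.39). It did not pass for Pla2g4a (-0.23, adjusted p = 0.0736) or Plau (0.43, adjusted p = 0.101). Mcm6 passed (0.34 for zymosan and -0.08 for LPS, difference 0.42 ± 0.07, adjusted p = 0.00613), as did Creld2 (-0.23 for zymosan and -0.54 for LPS, difference 0.31 ± 0.06, adjusted p = 0.0104). Commd10 (0.71 for zymosan and 1.29 for LPS, difference -0.59 ± 0.07, adjusted p = 5.66e-05) and Ptgs1 (0.46 for zymosan and 0.99 for LPS, difference -0.53 ± 0.09, adjusted p = 0.0082) departed further between genotypes with LPS. Acpp departed further with zymosan (-0.60 for zymosan and -0.16 for LPS, difference -0.44 ± 0.09, adjusted p = 0.0143). Mcm6, Creld2, Commd10, Ptgs1 and Acpp kept these calls in all 16 fits that left out 1 zymosan or LPS library, as did those of Dock4, a guanine nucleotide exchange factor (1.00 ± 0.20, adjusted p = 0.013), and Calhm6, an ion channel protein (0.98 ± 0.15, adjusted p = 0.00341), on the positive side, and Kcnn3, a calcium-activated potassium channel (-0.88 ± 0.15, adjusted p = 0.00613), and Smpd5, a sphingomyelinase (-0.83 ± 0.16, adjusted p = 0.00981), on the negative side. The zymosan interaction of Dock4, Calhm6, Kcnn3 and Smpd5 did not pass. Ccnd1 (0.64 for zymosan and 0.33 for LPS, difference 0.31 ± 0.08, adjusted p = 0.0428) and Polr1a (0.46 for zymosan and 0.01 for LPS, difference 0.46 ± 0.11, adjusted p = 0.0371) passed with all libraries and kept their calls in 5 and 6 of 16 such fits.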

How the data were processed

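RNA-seq libraries from bone marrow-derived dendritic cells were grouped by the genotype, treatment and replicate labels. The deposited table holds whole-number counts per Ensembl gene, used unchanged, and the authors' tools, with no role or order given, were DESeq2, Bowtie2 and RSEM 1.2.31 on build mm10, per the submitters' processing notes. Counting with strand, the annotation release and the rounding of counts are not given in the sources used here.

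Of 38887 genes, 14809 had no count, 37570 (96.6%) were matched to a symbol, and 14188 passed filterByExpr. edgeR 4.0.16 (R 4.3.3) fitted a mean for each of 6 groups over all 24 samples with TMM factors of 0.880 to 1.19, and the quasi-likelihood F test gave each contrast, with Benjamini-Hochberg adjustment over all tested genes and calls at an adjusted p under 0.05. Values after ± are standard errors from that fit. The fit was tested on simulated counts drawn independently for each library. These held no replicate pairs, so the calls under that split were not tested by them. Alternatives were DESeq2 1.42.0, its size factors, no filter, 16 samples only, replicate blocks, summed or separate replicate pairs, and leaving out each library. Summed pairs with the pair as a term within genotype were added after seeing the data.

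Within genotype, same-numbered zymosan and untreated libraries deviated together from their group means (r of 0.125 to 0.247 in 8 pairs). Differently numbered libraries within replicates 1 and 2 or within 3 and 4 did so as well (r of 0.0890 to 0.296 in 8 pairs), and libraries from across this split deviated oppositely (r of -0.247 to -0.0997 in 16 pairs). The deviations followed this split of the replicates as well as the number. Libraries of different genotypes showed the same split. There r was -0.0148 to 0.134 for same-numbered libraries. It was -0.00647 to 0.199 for differently numbered libraries within replicates 1 and 2 or within 3 and 4, and -0.137 to 0.0170 across the split. The block within genotype, which also carries this split, stands beside the counts it moves.

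Genes were named by a rule: the Ern1, Xbp1 and prostaglandin genes, the largest called interactions of each list and of all genes, and the smallest p. The text gives a selection of these, with those added after their values were seen marked so. The gene lists and the comparison were chosen with earlier results of these data known.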

Additional observations from a re-analysis of the deposited data

Results flagged for a closer look

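By the test of the difference itself, the zymosan response was called different between genotypes for 138 genes higher (0.973%) and 120 lower (0.846%) in KO. The genotype dependence was also called different between zymosan and LPS. As the zymosan interaction minus the LPS interaction on the log2 scale, these genes were Dock4 (1.00), Calhm6 (0.98), Polr1a (0.46), Mcm6 (0.42), Ccnd1 (0.31), Creld2 (0.31), Acpp (-0.44), Ptgs1 (-0.53), Commd10 (-0.59), Smpd5 (-0.83) and Kcnn3 (-0.88). Both sets of calls take the 4 replicates as independent, and with summed pairs neither contrast had a call. The differences of Ccnd1 and Polr1a kept their calls in 5 and 6 of 16 fits that left out 1 library.

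Among groups of 4 independent libraries chance sets 1 apart in about 1 in 20, a rate that need not hold with close replicate pairs. In 9 of 140 groups of 4 libraries checked (6.43%), 1 library stood apart from the other 3. In KO with zymosan these were Cyp26b1 in replicate 4 (13.2 CPM, others 11.2 to 11.3 CPM), Daglb in replicate 1 (11.3 CPM, others 9.96 to 10.2 CPM) and Ptgs2 in replicate 3 (1414 CPM, others 1174 to 1193 CPM). In KO untreated they were Acpp in replicate 4 (174 CPM, others 158 to 161 CPM), Mcm6 in replicate 3 (44.9 CPM, others 47.9 to 48.4 CPM), Mybbp1a in replicate 4 (103 CPM, others 95.3 to 96.02 CPM) and Tlr1 in replicate 2 (9.42 CPM, others 8.59 to 8.63 CPM). In WT with zymosan it was Myc in replicate 1 (15.1 CPM, others up to 13.3 CPM), and in WT untreated Pla2g4a in replicate 3 (53.3 CPM, others 50.2 to 50.3 CPM).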

How the results depend on the processing

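The 138 higher and 120 lower interaction calls became 139 and 109 with DESeq2 size factors, 99 and 91 without a filter, 107 and 47 in the 16 samples alone, 226 and 197 with DESeq2, 266 and 240 with a replicate block shared by genotypes, 292 and 298 with the replicate block within genotype, 558 and 648 in replicates 1 and 2 alone, 74 and 118 in replicates 3 and 4 alone, and 0 and 0 with summed pairs, with or without a pair term. Leaving out 1 library gave 69 to 195 higher and 56 to 155 lower calls. All 258 kept their sign in every alternative. The alternatives use the libraries in which the 258 were called, or a part of them, so the kept signs are no separate support.

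The 119 higher and 90 lower calls for zymosan minus LPS became 299 and 167 with DESeq2, 609 and 394 with the shared block, 688 and 417 with the block within genotype, 892 and 749 in replicates 1 and 2 alone, 401 and 210 in replicates 3 and 4 alone, and 0 and 0 with summed pairs, with or without a pair term. Leaving out 1 library gave 24 to 224 higher and 22 to 155 lower calls. The cause of these shifts was not tested.

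Of 99 called genes that were followed, 61 held in all 16 fits without 1 library, 98 with the block within genotype, 98 with DESeq2 and 66 in the 16 samples alone. Among genes described above, the 16 samples alone ended the calls of Aldh1a2, Aldh1l2, Cd14, Cd274, Creld2, Dusp2, Fads1, Gbp2, Gbp3, H2-Q4, Hif1a, Hmox1, Ifitm3, Ifnar2, Il1b, Il4ra, Manf, Mcm3, Mthfd1, Nos2, Rarb, Selenos, Socs2, Spcs2, Tnip1 and Trib3. DESeq2 gave no adjusted p for Rarb.

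Only values near 0 or uncalled changed sign. Ern1 was -0.00034 with summed pairs, -0.00086 with the pair term, -0.013 in replicates 3 and 4 alone and -0.026 to 0.033 without 1 library. Ptges3 was 0.017 in the 16 samples alone, 0.00033 with the replicate block within genotype, 0.055 in replicates 1 and 2 alone and -0.040 to 0.036 without 1 library. Ptgs2 was 0.12 in replicates 1 and 2 alone. Low levels, as for Creb3l2 in KO cells and Rarb, limit the precision of their interactions.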
